A study of Arabidopsis thaliana with 33 samples.

Results

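Heat shock transcription factors are the proteins that switch on chaperone genes when cells are heated, and 10 of the genes that encode them in Arabidopsis thaliana were followed here through 2 assays of open chromatin and 4 abiotic stresses. The genes were HSFA1A (AT4G17750), HSFA1B (AT5G16820), HSFA1D (AT1G32330), HSFA2 (AT2G26150), HSFA3 (AT5G03720), HSFA7A (AT3G51910), HSFA7B (AT3G63350), HSFB1 (AT4G36990), HSFB2A (AT5G62020) and HSFB2B (AT4G11660). They were chosen by locus name, 10 of the 27444 protein-coding genes on chromosomes 1 to 5, and every peak with its summit in the gene or within 1000 bp of either end was counted. All 10 loci were found in the gene table, where their symbols or synonyms name them as heat shock factors.

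The plants were 10 day old Columbia-0 seedlings grown on medium with 3% sucrose. Heated seedlings were kept at 38 °C for 6 h, cold-treated seedlings at 4 °C for 24 h, salt-treated seedlings in 250 mM sodium chloride for 6 h, and drought seedlings were air dried for 1 h; control seedlings had no stress. DNase-seq sequences fragments cut loose by the nuclease DNase I, and FAIRE-seq reads the DNA that stays free of protein after formaldehyde fixation. Each condition had 3 libraries per assay, except cold with 2, and each group was represented by 1 pooled peak list, so there is no replicate error and no test was made. Whole seedlings were used, so an open site in fewer cells and a less open site in each cell cannot be told apart, and no expression values were analysed here by which the tissue could be checked.

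Arabidopsis heat shock factors fall into classes A, B and C. Class A1 factors are made in unstressed plants, are held inactive by chaperones and start the response to heat, and other class A factors such as HSFA2 are themselves induced and prolong it. Class B factors lack the activation motif of class A and several of them repress heat shock genes. All of them bind heat shock elements, inverted repeats of a short motif found in promoters of chaperone genes and of several heat shock factor genes.

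All 10 genes held at least 1 summit in each of the 10 lists, as did between 85.5% (drought DNase-seq) and 96.3% (drought FAIRE-seq) of all protein-coding genes. The DNase-seq lists placed 38 summits at the 10 genes in heat, 35 in cold, 28 in salt, 29 in drought and 31 in control. The FAIRE-seq lists placed 40 in heat, 27 in cold, 37 in salt, 36 in drought and 30 in control. The heat lists thus held the most summits at these genes in either assay, although the heat DNase-seq list, with 57736 peaks, is shorter than the control list with 70807. Other lists held 64324 peaks in cold, 55784 in salt and 45737 in drought for DNase-seq, and 85366 in heat, 63060 in cold, 90465 in salt, 92034 in drought and 72789 in control for FAIRE-seq. Read depth behind the lists is unknown. The heat DNase-seq list had 0.888 summits per kb at the 10 genes and 0.614 per kb over the windows of all protein-coding genes, and the control DNase-seq list had 0.724 at the 10 genes and 0.674 over all genes. The drought DNase-seq list had 0.678 per kb at the 10 genes and 0.448 over all genes. In FAIRE-seq the members and all genes were closer, with 0.935 and 0.816 per kb in heat, 0.865 and 0.857 in salt, 0.841 and 0.877 in drought and 0.701 and 0.694 in control.

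**Figure D1:**
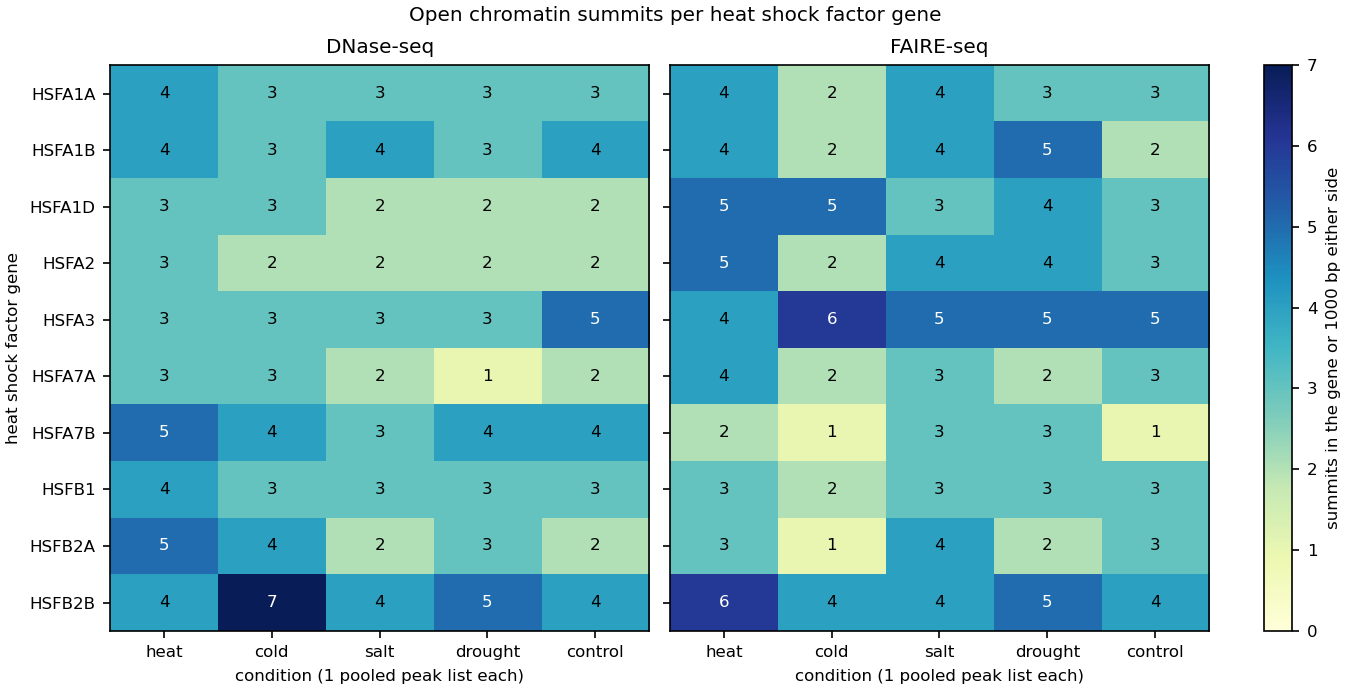
Number of summits (colour and digits) in each heat shock factor gene or within 1000 bp of it (rows), in the pooled peak list of each condition (columns), for DNase-seq on the left and FAIRE-seq on the right. HSFB2B has 7 DNase-seq summits in cold and 4 in control, and some of its control peaks are split in cold. HSFA7B has 5 DNase-seq summits in heat but 1 FAIRE-seq summit in control.

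Joining all peaks of the 10 lists that share a base gave 42 sites at the 10 genes. Of these, 13 (31.0%) were present in all 10 lists, against 20.6% of the 89178 sites in the windows of all protein-coding genes. The joined sites had a median length of 343.5 bp at the 10 genes and 270.0 bp at all genes, and a longer site meets more lists. Every gene except HSFA7B had at least 1 site present in all 10 lists, and 12 of those 13 sites had their centre inside the gene. Another 6 sites were seen by DNase-seq alone and 6 by FAIRE-seq alone. A single list held 5 of the sites (11.9%, against 14.5% of sites in the windows of all genes), and 4 of the 5 were heat sites: a FAIRE-seq peak at HSFA2, a FAIRE-seq peak at HSFA7A and DNase-seq peaks at HSFA7B and HSFB2A. The fifth was a salt DNase-seq peak at HSFA3. In the windows of all protein-coding genes the heat lists supplied 35.6% of the peaks found in a single list.

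Each stress list was compared with control seedlings in the same assay. Peaks of the stress list without any base in common with the control list are called gained, and control peaks without any base in common with the stress list are called lost. The comparisons of an assay share 1 control list. Under heat, 6 of the 10 genes had a gained DNase-seq peak, where 45.0% of all protein-coding genes did, and a FAIRE-seq peak was gained at 7, where the share of all genes was 54.9%. Few peaks were lost in heat: 2 genes had a lost DNase-seq peak (53.8% of all genes) and 0 had a lost FAIRE-seq peak (20.1% of all genes). Under cold, 3 genes gained (28.2%) and 2 lost (42.2%) a DNase-seq peak, and 5 gained (31.8%) and 7 lost (56.9%) a FAIRE-seq peak. Under salt, 1 gene gained (3.21%) and 4 lost (48.2%) a DNase-seq peak, and 8 gained (64.1%) and 5 lost (30.7%) a FAIRE-seq peak. Under drought, 2 genes gained (3.36%) and 4 lost (62.1%) a DNase-seq peak, and 7 gained (65.4%) and 2 lost (25.5%) a FAIRE-seq peak. The share of the 10 genes with a gained peak was above that of all genes in each of the 8 comparisons, by less than 2 genes in each. With the window reduced to the gene ends it was below that of all genes in 5 of the 8. The count furthest below its background was that of lost DNase-seq peaks under heat, but it was 5 rather than 2 when at least 50% of a peak had to be covered (60.3% of all genes), and 5 when summits were matched within 150 bp (66.1%). With windows of the members' length range, 3577 to 5508 bp, 49.4% of 13754 such genes gained and 54.3% lost a DNase-seq peak under heat, and 30.1% gained one in cold, against 30.0% of the 10 genes.

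**Figure D2:**
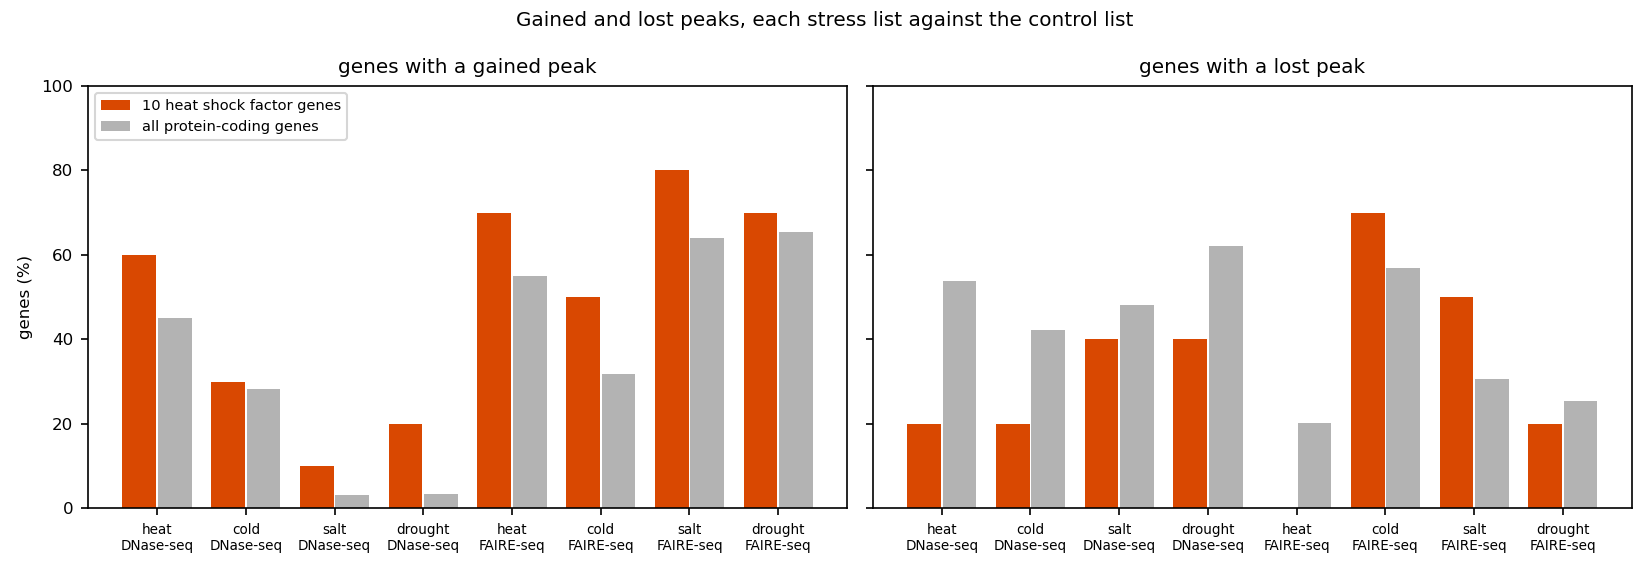
Share of genes (%) with a gained peak (left) and with a lost peak (right) in each stress list compared with control, for the 10 heat shock factor genes (orange) and all 27444 protein-coding genes (grey). In heat DNase-seq 2 of the 10 genes had a lost peak, against 53.8% of all genes, and in drought DNase-seq 2 had a gained peak, against 3.36%.

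In all, the 10 genes held 53 gained and 32 lost peaks over the 8 comparisons. A control peak lost in several stresses counts once for each, here and in the counts per gene below. The 32 therefore stand for fewer separate control peaks, and those lost repeatedly weigh more in the values that follow. Their strength in their own list was mostly modest, since the gained peaks outranked a median of 29.6% of their list by −log10 q and the lost peaks a median of 26.9% of the control list. No gained peak outranked more than 78.0% of its list, and no lost peak more than 53.2%. Of the gained peaks, 12 had their summit inside another protein-coding gene, as had 12 of the lost peaks. With 1000 bp flanks, 36 of the 53 gained and 24 of the 32 lost peaks also fell in the window of another protein-coding gene. The same ranks and shares were not computed for the changed peaks of all genes, so they cannot be read as particular to these 10 genes. The −log10 q and the fold enrichment were written by the authors' peak caller, so they rank peaks inside a list and give no change between lists.

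The 3 class A1 genes, the activators that are present before stress, kept their strongest DNase-seq sites through every treatment and gained peaks mainly in FAIRE-seq. Under each of the 4 stresses all 3 genes had a gained FAIRE-seq peak, where the share of all genes was 54.9% in heat, 31.8% in cold, 64.1% in salt and 65.4% in drought. Over all genes too, gained peaks were more frequent in FAIRE-seq than in DNase-seq under every stress, as the shares above show. The FAIRE-seq calls at the 3 genes varied with the settings. When peaks under a −log10 q of 5 were dropped, HSFA1D was not called in heat, nor HSFA1A and HSFA1B in cold. With lists of equal length HSFA1D was not called in heat, salt or drought. With gene ends only, HSFA1A alone was called in heat, salt and drought, and no A1 gene in cold. HSFA1A had its strongest DNase-seq site near the higher-coordinate end of the gene. There the peak, on chromosome 4 (TAIR10) at 9871277 to 9871551 in heat and at 9871247 to 9871589 in control, outranked 95.4% of the list in heat, 97.9% in cold, 89.4% in salt, 99.4% in drought and 99.5% in control. The same place was listed by FAIRE-seq in heat, salt, drought and control but not in cold. Just outside that end lies a further DNase-seq site of all 5 lists, with its summits inside the neighbouring gene AT4G17760. FAIRE-seq gained a peak on it in 3 stresses, at 9871755 to 9871865 in heat, 9871757 to 9871888 in salt and 9871745 to 9871882 in drought, and listed none there in cold or control. In the middle of the gene, a heat DNase-seq peak at 9870760 to 9870977 was gained but weak, with a fold enrichment of 1.63 and a rank above 5.36% of the heat list. FAIRE-seq gained a peak there in cold (9870763 to 9870949) and in salt (9870772 to 9870958). Its heat and drought peaks that meet a control peak also reached this place.

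HSFA1B showed the greatest number of changes among the A1 genes, with 9 gained and 4 lost peaks over the 8 comparisons. A DNase-seq site with its summit inside the neighbouring gene AT5G16810 outranked 89.7% of the list in heat, 90.3% in cold, 90.5% in salt, 94.9% in drought and 92.3% in control. At the lower-coordinate end of the gene, FAIRE-seq listed a peak in all 5 conditions, on chromosome 5 at 5530065 to 5530315 in heat and 5530034 to 5530275 in control. DNase-seq listed that end in heat alone, at 5530121 to 5530233, with its summit 14 bp outside the gene and a fold enrichment of 1.83. Further in, DNase-seq listed a peak in every condition, at 5530300 to 5530673 in heat and 5530338 to 5530686 in control, and FAIRE-seq gained a peak there in heat (5530441 to 5530640), salt (5530417 to 5530647) and drought (5530431 to 5530634). The second DNase-seq site inside the gene, at 5531351 to 5531579 in control, outranked 4.41% of the control list and was lost in heat, cold and drought. Within the gene body, control FAIRE-seq had no peak from 5531374 to 5532391, the stretch of a single gained salt peak. Drought had gained peaks in the same stretch at 5531383 to 5531629 and 5531707 to 5532287, heat at 5531676 to 5531828 and cold at 5531937 to 5532097.

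HSFA1D gained a FAIRE-seq peak in every stress and no DNase-seq peak in any. Its gained peaks lay at 2 places. The first, on chromosome 1 at 11660009 to 11660134 in heat, 11660016 to 11660163 in salt and 11660029 to 11660173 in drought, is a place that DNase-seq listed in all 5 conditions, with the control peak at 11660020 to 11660279. The other, at 11658952 to 11659052 in heat and 11658977 to 11659076 in cold, was not listed by DNase-seq in any condition. A control FAIRE-seq peak at the higher-coordinate end, 11660354 to 11660527, was lost in salt and present in heat, cold and drought.

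**Figure D3:**
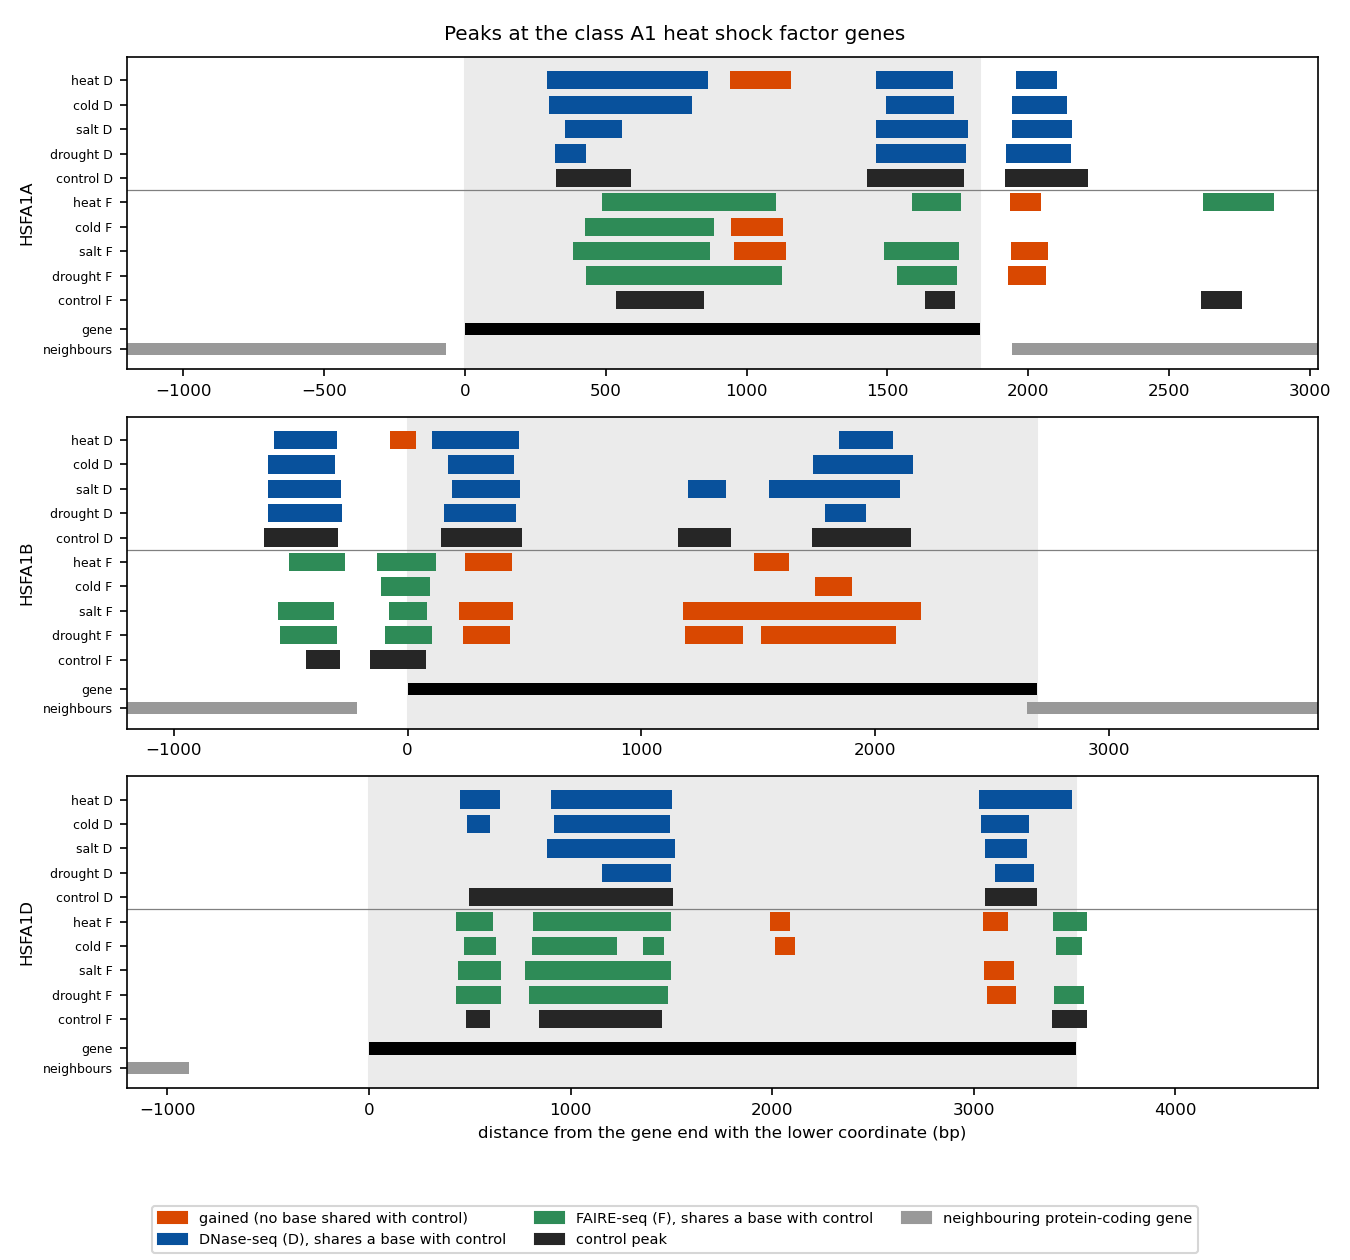
Peaks of the 10 lists at HSFA1A, HSFA1B and HSFA1D, drawn by distance (bp) from the gene end with the lower coordinate; D rows are DNase-seq, F rows are FAIRE-seq, the shaded span is the gene and grey bars are neighbouring protein-coding genes. Orange peaks share no base with the control list of the same assay. In FAIRE-seq some recur in heat, salt and drought at places where the DNase-seq rows, control included, have a peak. Others lie where the control DNase-seq row has none, such as the mid-gene HSFA1D peaks in heat and cold.

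Of the remaining class A genes, HSFA2, HSFA7A and HSFA7B gained a peak in both assays under heat, and HSFA3 gained none. HSFA2 is among the most heat-inducible of the family and sustains acquired thermotolerance. Its heat DNase-seq list had 3 summits, against 2 in each of cold, salt, drought and control. The added peak, on chromosome 2 at 11135096 to 11135377 and with a fold enrichment of 2.00, had its summit 455 bp outside the lower-coordinate end and inside the neighbouring gene ftsh4 (AT2G26140), a mitochondrial protease. FAIRE-seq already listed this place in every condition, and its peak there outranked 84.2% of the list in heat, 82.4% in cold, 74.0% in salt, 71.0% in drought and 83.0% in control. FAIRE-seq in turn gained a heat peak at the gene end itself, 11135526 to 11135678, with its summit 13 bp outside the gene. That peak outranked 76.7% of the heat list, had a fold enrichment of 2.44, and met no peak of any other list. The centre of the gene was open in all 10 lists, and the FAIRE-seq peak there outranked 89.5% of the list in heat and 90.5% in control. Salt and drought each gained a FAIRE-seq peak inside the gene, at 11135884 to 11136069 and 11135896 to 11136071, on a DNase-seq site present in all 5 conditions. A weak control FAIRE-seq peak beyond the higher-coordinate end, 11138553 to 11138789 inside AT2G26160, was lost in cold alone.

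HSFA3 is switched on in Arabidopsis by the drought and heat factor DREB2A. It was the member with the most lost peaks, 7 over the 8 comparisons when each is counted once per stress, and had 2 gained. All of its losses were in DNase-seq. Control DNase-seq listed 5 summits at the gene, and each stress list held 3. A weak control peak on chromosome 5 at 970951 to 971053, with its summit inside the overlapping gene AT5G03710, was lost in cold, salt and drought, and outranked 4.63% of the control list. A stronger one at 974887 to 975224, 624 bp beyond the other end and inside CTR1 (AT5G03730), the kinase that represses ethylene signalling, was lost in heat, cold and salt and outranked 49.0%. A pair of sites within the gene was present in all 10 lists, and a single heat DNase-seq peak covered 973340 to 974596, where the control list had separate peaks at 973343 to 973643 and 973781 to 974106. The second of these control peaks was lost in salt, where a gained DNase-seq peak at 971433 to 971577 outranked 19.9% of the list.

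HSFA7A and HSFA7B are heat-induced class A factors whose proteins resemble HSFA2. At HSFA7A, heat alone brought a FAIRE-seq peak outside the lower-coordinate end, on chromosome 3 at 19264720 to 19264944, which outranked 63.2% of the heat list and had its summit 381 bp from the gene. A small DNase-seq peak near the other end appeared in heat at 19266438 to 19266554 and in cold at 19266431 to 19266546, and FAIRE-seq listed it in salt at 19266401 to 19266538. Drought left HSFA7A with 1 DNase-seq summit, against 2 in control: the peak at 19266101 to 19266273, which outranked 48.5% of the control list, was lost. FAIRE-seq still listed this place in drought, at 19266121 to 19266302, where its peak outranked 81.9% of the list, against 41.0% in control. A control FAIRE-seq peak beyond the higher-coordinate end, 19266907 to 19267016, was kept in heat and lost in cold, salt and drought.

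At HSFA7B the assays listed different parts of the gene in control seedlings. DNase-seq had 4 control summits and FAIRE-seq had 1, which lay outside the lower-coordinate end at 23398435 to 23398725 and outranked 93.1% of the list. That outer site outranked 93.0% of the FAIRE-seq list in heat, 96.9% in cold, 81.9% in salt and 82.6% in drought, and its DNase-seq counterpart was lost only in salt. Inside the gene FAIRE-seq gained weak peaks, 1 in heat, 2 in salt, 2 in drought and 0 in cold, all on DNase-seq sites present in all 5 conditions. Heat alone brought a DNase-seq peak between the outer site and the gene, at 23398903 to 23399023, with its summit 269 bp outside the gene and a rank above 31.7% of the heat list.

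**Figure D4:**
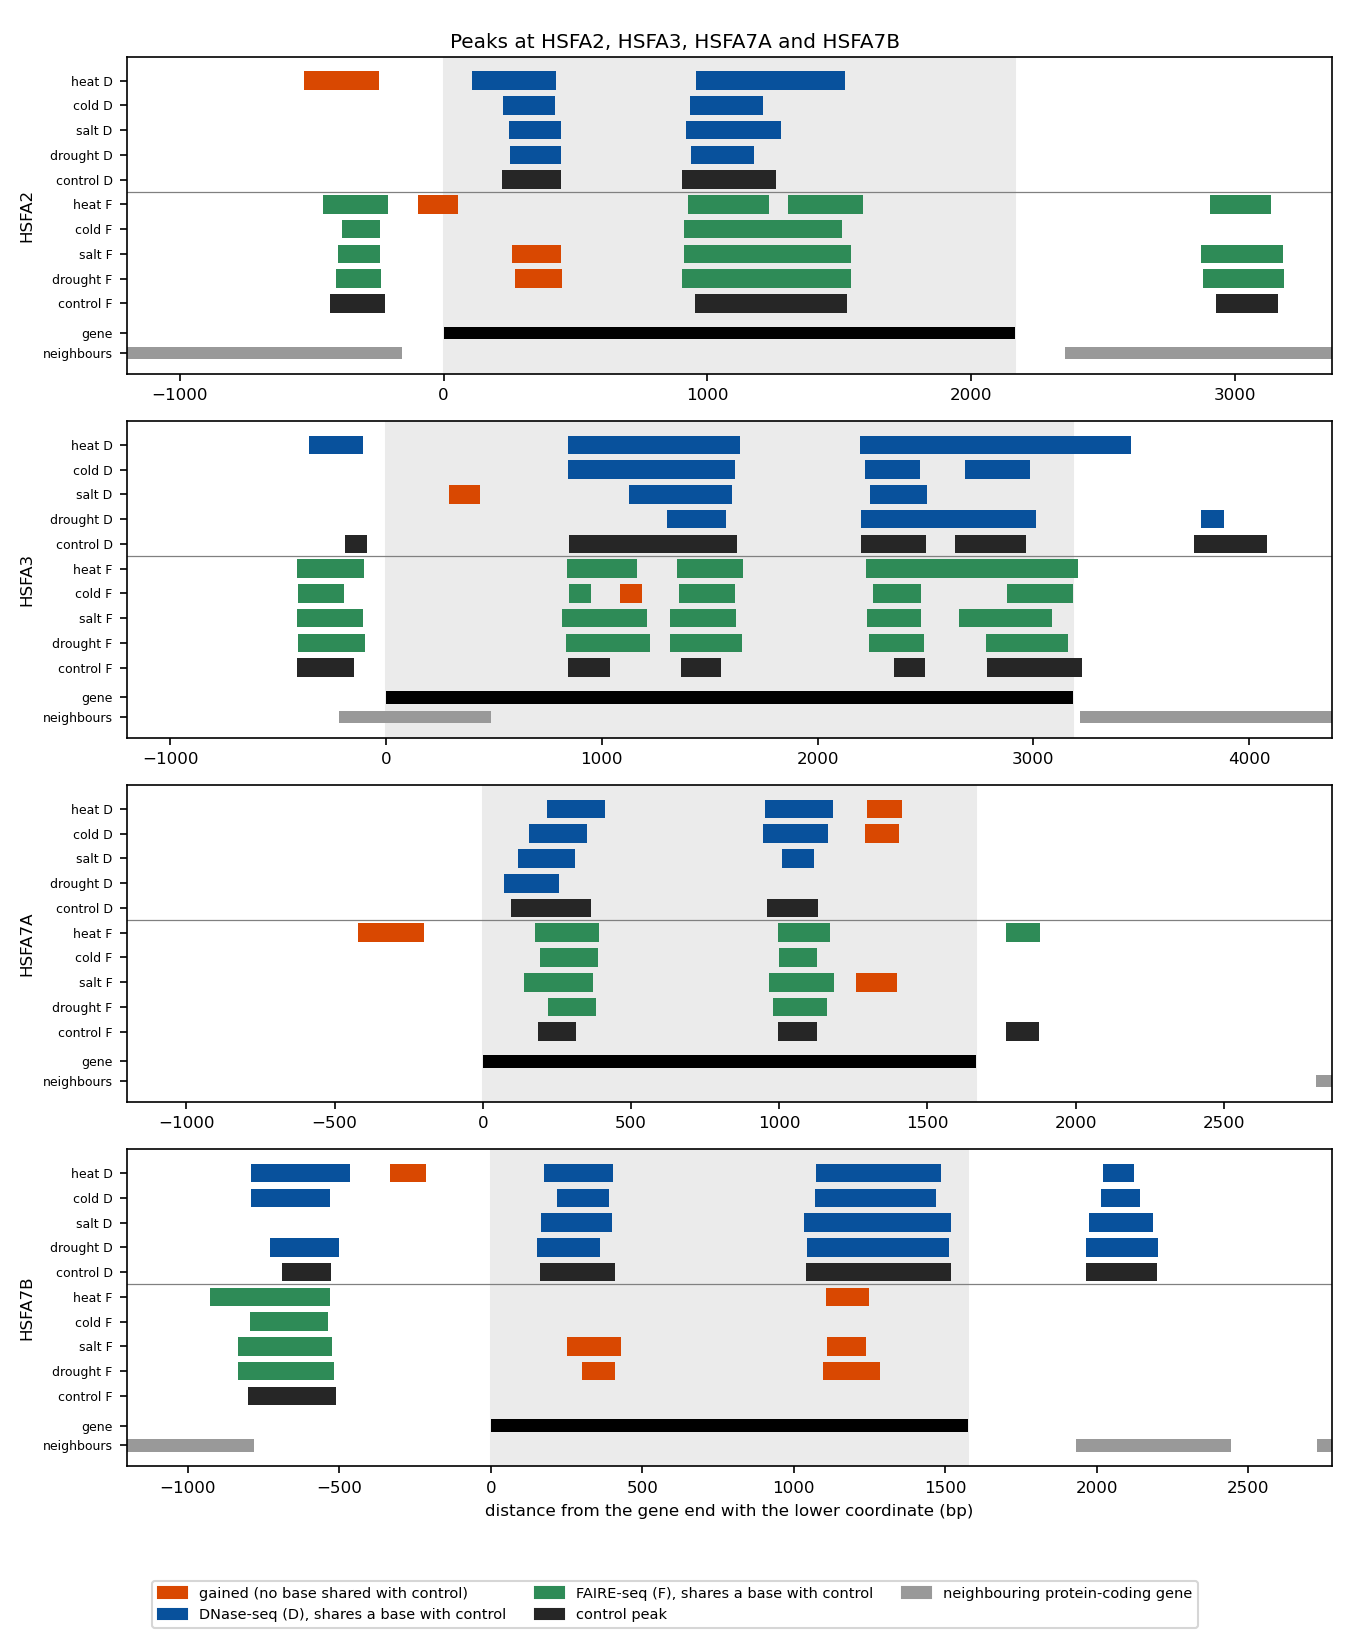
Peaks of the 10 lists at HSFA2, HSFA3, HSFA7A and HSFA7B, by distance (bp) from the gene end with the lower coordinate; D rows are DNase-seq, F rows are FAIRE-seq, the shaded span is the gene and grey bars are neighbouring protein-coding genes. Orange peaks share no base with the control list of the same assay: outside the lower-coordinate end they occur in the heat rows of HSFA2 (DNase-seq and FAIRE-seq), HSFA7A (FAIRE-seq) and HSFA7B (DNase-seq) and in no other stress row.

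The class B genes included the member with the fewest changes, HSFB1, and 2 of the 3 with the most. HSFB1, also called TBF1, is a repressor of heat shock genes that also acts in the switch from growth to defence. It gained no peak in any of the 8 comparisons and lost 1, by the rule of a shared base over the full lists. It was called gained in heat, salt and drought FAIRE-seq when peaks under a −log10 q of 5 were dropped and when lists had equal length, and in heat and cold DNase-seq and salt FAIRE-seq when summits were matched within 150 bp. Its central site, on chromosome 4 at 17441069 to 17441705 in the heat DNase-seq list and 17441060 to 17441686 in the control list, outranked 97.5% of the DNase-seq list in heat, 99.2% in cold, 95.8% in salt, 97.5% in drought and 99.0% in control. In FAIRE-seq the same site outranked 93.0% of the list in heat, 91.3% in cold, 91.9% in salt, 95.1% in drought and 96.8% in control. No other site of the 10 genes stood above 90% of every list. A further site in all 10 lists, 17442632 to 17442974 in control DNase-seq, lay in the neighbouring gene ACD2 (AT4G37000), an enzyme of chlorophyll breakdown. The lost peak was a weak FAIRE-seq peak at 17440702 to 17440842, absent in cold, which outranked 5.34% of the control list.

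HSFB2A, a further repressor, gained 8 and lost 6 peaks. Under heat it gained 3 DNase-seq peaks, the most gained by any member in a single DNase-seq comparison. They lay on chromosome 5 at 24915510 to 24915828 across the lower-coordinate end, at 24917564 to 24917744 across the higher-coordinate end, and at 24918427 to 24918579, with the summit 832 bp outside the gene. The heat list ranked them above 52.5%, 46.9% and 34.2% of its peaks. Cold gained a weaker peak within the first of these places, 24915618 to 24915727, which outranked 6.06% of its list. Drought gained a DNase-seq peak at the higher-coordinate end, 24917467 to 24917642, with a fold enrichment of 4.75 and a rank above 55.4% of the drought list. FAIRE-seq listed that end in heat, salt and control, with control at 24917540 to 24917733, and lost it in cold and drought. The control FAIRE-seq peak at 24915971 to 24916113 was lost in cold, salt and drought and kept in heat.

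HSFB2B, which represses heat shock genes together with HSFB1, gained 9 peaks and lost 4, and had a gained peak in 6 of the 8 comparisons. It held 7 DNase-seq summits in cold, against 4 in control. The long control peak at 7043438 to 7044452 on chromosome 4 outranked 97.8% of the control list. It was listed in cold as 2 peaks, 7043471 to 7043864 and 7043963 to 7044486. The control peak at 7044735 to 7045163 was likewise listed in cold as 2 peaks, 7044742 to 7044921 and 7045014 to 7045137. At the lower-coordinate end of the gene, cold gained a DNase-seq peak at 7042632 to 7042847 and drought a peak at 7042469 to 7042589. The cold peak lay on a control FAIRE-seq peak at 7042646 to 7042762, which FAIRE-seq lost in cold and salt. The heat DNase-seq list covered this end with 1 peak from 7042553 to 7043269 that also meets a control peak and so is not called gained. Beyond the other end, FAIRE-seq gained peaks in heat, salt and drought at 7044800 to 7045138, 7044717 to 7045149 and 7044731 to 7045137, and the salt peak outranked 78.0% of its list. These lay inside the overlapping gene AT4G11670, on a DNase-seq site present in all 5 conditions. Further out, the control DNase-seq peak at 7045612 to 7045783 was lost in salt and drought. FAIRE-seq gained peaks on it in heat (7045414 to 7045629), salt (7045351 to 7045797) and drought (7045350 to 7045630).

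**Figure D5:**
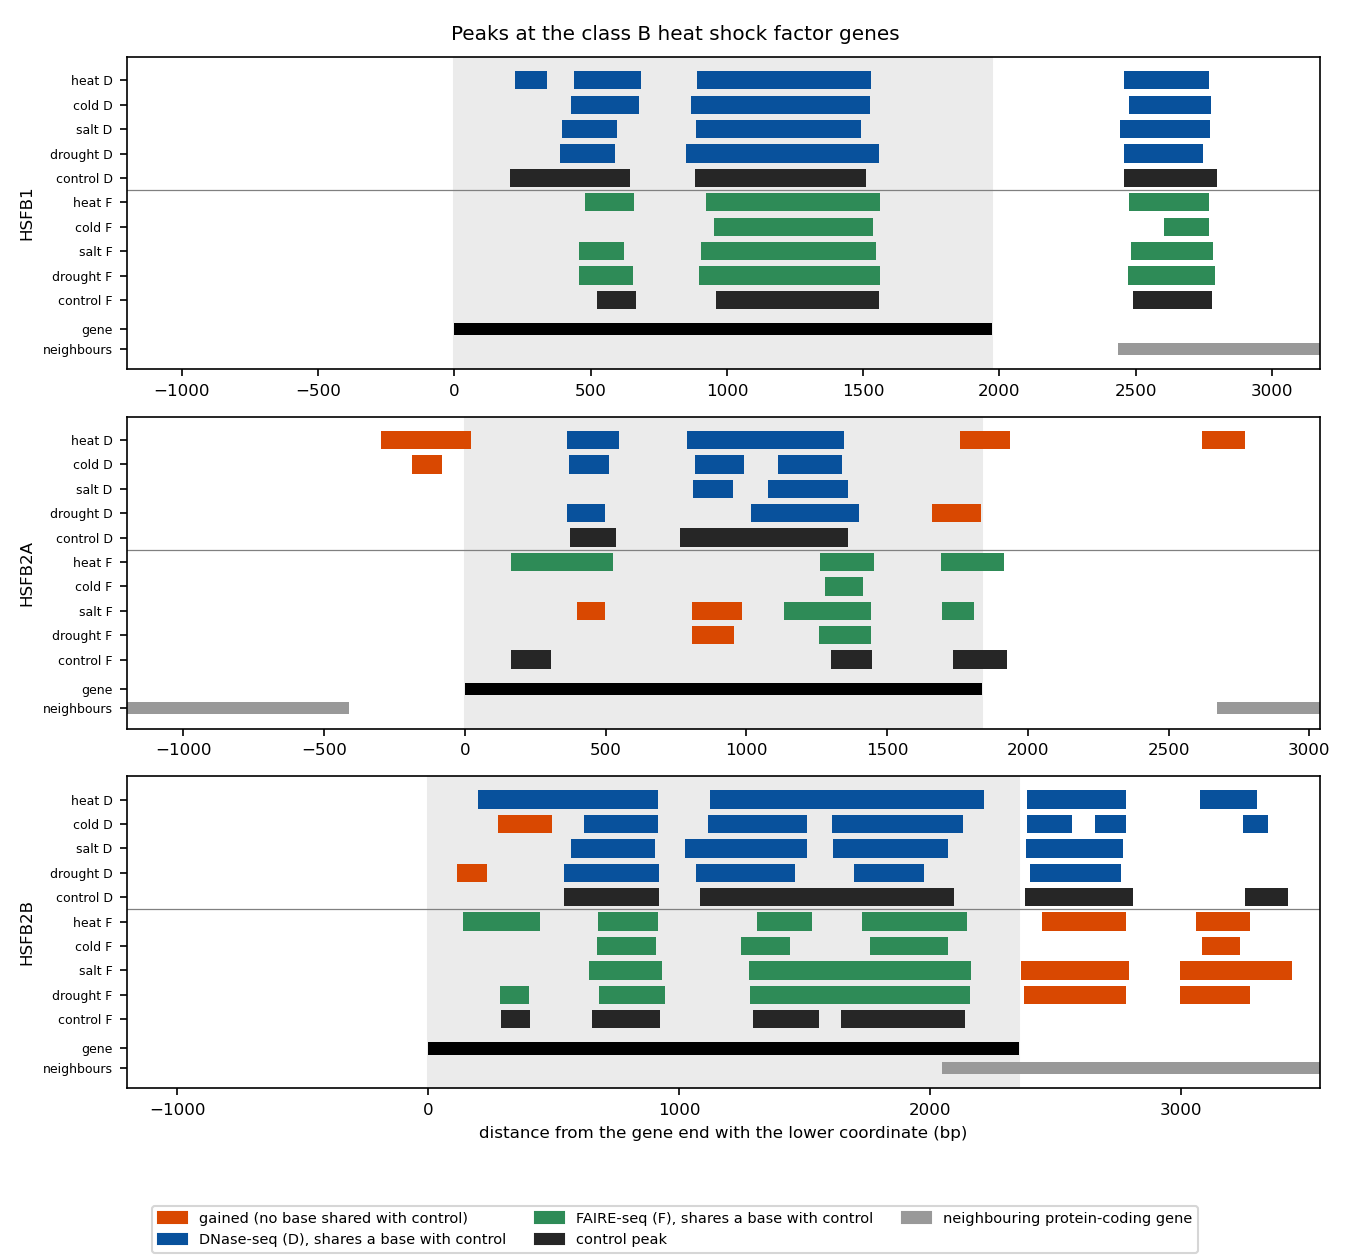
Peaks of the 10 lists at HSFB1, HSFB2A and HSFB2B, by distance (bp) from the gene end with the lower coordinate; D rows are DNase-seq, F rows are FAIRE-seq, the shaded span is the gene and grey bars are neighbouring protein-coding genes. HSFB1 has no orange peak, that is, none that shares no base with control, while HSFB2A has 3 in the heat DNase-seq row and HSFB2B has 2 in each of the heat, salt and drought FAIRE-seq rows.

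The place of a gained FAIRE-seq peak was often one that DNase-seq had listed in unstressed seedlings. Of the gained FAIRE-seq peaks at the 10 genes, 11 of 11 in drought shared a base with a control DNase-seq peak, where 55.8% of the gained FAIRE-seq peaks in the windows of all protein-coding genes did. In salt 11 of 13 did (59.5% of all), in heat 6 of 10 (52.0%) and in cold 2 of 5 (57.2%). Gained DNase-seq peaks under heat shared a base with a control FAIRE-seq peak in 3 of 8 cases, at HSFA1B, HSFA2 and HSFB2A, where 56.1% of all did. A lost DNase-seq peak was often at a place that FAIRE-seq listed in the same stress. This held for 4 of 4 in drought (79.3% of all) and 5 of 6 in salt (73.2%). It held for 0 of 2 in heat (49.4%) and 0 of 3 in cold (21.6%). None of the 5 FAIRE-seq peaks lost in salt or of the 3 lost in drought lay on a control DNase-seq peak, and of all lost FAIRE-seq peaks 3.59% and 4.51% did; in cold 3 of 9 did (42.8% of all). These counts are small and neighbouring peaks of a gene can recur under several stresses, so they describe the listed sites. Within a condition, 76.3% (29 of 38) of the DNase-seq peaks at the 10 genes shared a base with a FAIRE-seq peak in heat (95% Wilson interval 60.8 to 87.0, counting error only), against 81.9% over all gene windows, and 58.1% (18 of 31; 40.8 to 73.6) did in control, against 61.3%. In cold the share was 48.6% (17 of 35, 33.0 to 64.4), against 65.1% over all gene windows. In salt and drought it was 92.9% and 82.8%, against 91.8% and 88.5%. Of the FAIRE-seq peaks at the 10 genes, 82.5% (33 of 40, 68.1 to 91.3) met a DNase-seq peak in heat, against 61.2% over all gene windows. The share was 66.7% (24 of 36, 50.3 to 79.8) in drought, against 42.1%. It was 67.6% in salt, 74.1% in cold and 70.0% in control, against 55.6%, 71.8% and 64.5%. The intervals treat peaks as independent although several come from the same gene, so they are no test against all gene windows.

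Peaks gained in both assays under the same stress were counted too. Under heat 5 genes had them (27.5% of all genes), HSFA1A, HSFA1B, HSFA2, HSFA7A and HSFA7B. Under cold 1 did (10.5%), HSFB2B; under salt 0 did (2.5%); and under drought 2 did (2.4%), HSFB2A and HSFB2B. Lost peaks in both assays were found at 0 genes in heat (12.1%), at HSFA1B in cold (26.1%), at HSFB2A and HSFB2B in salt (15.9%) and at HSFA7A in drought (16.3%). At none of these genes did the DNase-seq peak and a FAIRE-seq peak with the same call share a base. The shares of all genes do not require a shared place either. Under heat with lists of equal length, the genes gained in both assays were HSFA1B, HSFA2, HSFA7A and HSFB2A. With gene ends only it was HSFA2 alone. Without summits inside other genes they were HSFA1B, HSFA7A and HSFA7B. The share of all genes gained in both assays was not computed for these settings.

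Among the 11 other heat shock factor genes, DNase-seq peaks were gained at 7 and lost at 4 under heat, and FAIRE-seq peaks were gained at 6 and lost at 3. HSFA5, HSFA6A, HSFA6B and HSFA8 gained in both assays, and HSFA1E and HSFA4C lost in both. HSFA6B, a factor tied to abscisic acid signalling, had 3 DNase-seq summits in heat, 1 in cold, 1 in salt, 0 in drought and 1 in control. HSFA6A had 2 in heat, 2 in cold, 0 in salt, 0 in drought and 1 in control. HSFA5 was listed at 0 FAIRE-seq summits in cold and at 4 in heat, 5 in salt, 6 in drought and 2 in control. The all-gene shares given above for the 10 genes hold for these lists too, and 7 of 11 is 63.6% against 45.0% for gained DNase-seq peaks in heat, while 6 of 11 is 54.5% against 54.9% for gained FAIRE-seq peaks. Under the other stresses the 11 genes had gained and lost DNase-seq peaks at 2 and 4 in cold (all genes 28.2% and 42.2%), 0 and 7 in salt (3.21% and 48.2%) and 1 and 8 in drought (3.36% and 62.1%). Their gained and lost FAIRE-seq peaks were at 2 and 6 genes in cold (31.8% and 56.9%), 6 and 3 in salt (64.1% and 30.7%) and 5 and 2 in drought (65.4% and 25.5%). Taking all 21 family genes, heat brought a gained DNase-seq peak to 13 (61.9%, against 45.0% of all protein-coding genes) and a lost peak to 6 (28.6%, against 53.8%).

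Of the 26 known targets and partners of heat shock factors, 14 had a gained DNase-seq peak in heat (53.8%, against 45.0% of all genes) and 11 a lost one (42.3%, against 53.8%). A gained FAIRE-seq peak in heat was found at 15 (57.7%, against 54.9%) and a lost one at 3 (11.5%, against 20.1%). In cold, 11 had a gained and 11 a lost DNase-seq peak (42.3% each, against 28.2% and 42.2%), and 8 had a gained and 12 a lost FAIRE-seq peak (30.8% and 46.2%, against 31.8% and 56.9%). In salt, 4 had a gained and 13 a lost DNase-seq peak (15.4% and 50.0%, against 3.21% and 48.2%), and 17 had a gained and 6 a lost FAIRE-seq peak (65.4% and 23.1%, against 64.1% and 30.7%). In drought, 2 had a gained and 18 a lost DNase-seq peak (7.69% and 69.2%, against 3.36% and 62.1%), and 17 had a gained and 5 a lost FAIRE-seq peak (65.4% and 19.2%, against 65.4% and 25.5%). By number of DNase-seq summits, 10 of the 26 had more in heat than in control, 6 had fewer and 10 had as many; by FAIRE-seq summits 10 had more, 7 fewer and 9 as many. Gained peaks in both assays under heat were found at 10 of the 26 (27.5% of all genes): APX2, BAG6, DREB2A, FES1A, HOP3, Hsp70b, HSP90.1, MBF1C, ROF1 and ROF2. FES1A, a co-factor of cytosolic HSP70, had 7 DNase-seq summits in heat and 5 in control, and HOP3, a co-chaperone that links HSP70 and HSP90, had 4 in heat and 2 in control. HSA32, a protein of long-term acquired thermotolerance, had 2 DNase-seq summits in heat and 4 in control. ROF1, an immunophilin that binds HSP90 and HSFA2, and HSP90.1 each had a gained and a lost peak in both assays under heat, and HSA32 lost a peak in both assays.

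The calls rest on whether peaks share a base. At the 10 genes the gained peak nearest to a control peak was 42 bp away, the cold FAIRE-seq peak of HSFA3 at 972224 to 972326, and the lost peak nearest to a stress peak was 87 bp away, the salt comparison of the HSFA3 control peak inside CTR1. On the other side of the rule, the HSFA1A control FAIRE-seq peak at 9872432 to 9872577 shared 6 bp with the drought list and was therefore not called lost, and the HSFB2B heat DNase-seq peak at 7045430 to 7045660 shared 49 bp with control and was not called gained.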

How the data were processed

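Per the labels, each of the 10 peak lists belongs to all libraries of 1 condition and assay; the title letters D and F were read as DNase-seq and FAIRE-seq. FastQC, Bowtie2, TopHat2, SAMtools, MACS2 and TAIR10 as build were listed, per the submitters' processing notes; the sources used here do not give settings, pooling steps or any shift of DNase-seq cut sites. Each deposited list gives a fold enrichment over background (a ratio), −log10 q for each peak (the p-value column was not used), a score of 10 times −log10 q without decimals (not used), and the summit's distance from the peak start, as the authors' peak caller wrote them. Depth is unknown, because the lists hold no read totals. Shares of a list outranked are by −log10 q.

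Genes were placed with RefSeq's list for TAIR10.1, which has neither strand nor exons, so ends are called by coordinate; exons, introns, sequences and the planned search for heat shock elements were not analysed here. The strongest control DNase-seq summits were rarest within 50 bp of gene ends on each of the 5 chromosomes, which checks the table against the lists. Overlaps were computed with Python 3.11.15 and pandas 2.3.3, and tested on simulated data. No test was made, since each group has 1 list. All 10 members are named; other family genes and targets are named where gained or lost in both assays under heat, and neighbours where a changed peak lies in their body; ACD2 beside HSFB1 was added after its values were seen. A peak can count for neighbouring genes too. Members and lists were chosen with earlier results of these data known. The 5 RNA samples were not analysed here.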

Additional observations from a re-analysis of the deposited data

How the results depend on the processing

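The counts of genes with a gained or lost peak, 16 in all, were recomputed under 7 other settings, 6 planned and 1 (summits inside another protein-coding gene left out) chosen after seeing the data; counts not given here stayed within 1.5 times. The share of all genes under the same setting follows each count in parentheses. When peaks under a −log10 q of 5 were dropped, cold DNase-seq had 1 gene gained (21%) and 4 lost (49.2%), and cold FAIRE-seq 2 gained (25.7%). With at least 50% of a peak covered, 5 genes lost a DNase-seq peak in heat (60.3%) and 7 in drought (68.4%). With summits matched within 150 bp, 5 lost a DNase-seq peak in heat (66.1%), 6 gained (47.0%) and 6 lost (52.1%) one in cold, 3 gained one in salt (16.3%), and 1 lost a FAIRE-seq peak in heat (40.4%) and 5 in drought (50.0%). With DNase-seq lists trimmed to their strongest 45737 peaks and FAIRE-seq lists to 63060, 4 lost a DNase-seq peak in cold (33.2%) and 1 in drought (27.7%), 4 lost a FAIRE-seq peak in cold (47.1%) and 5 gained one in salt (46.7%). With 500 bp flanks, 1 lost a DNase-seq peak in heat (46.4%) and 2 in salt (40.8%). With gene ends only (1000 bp outside to 200 bp inside), DNase-seq had 1 lost in heat (27.0%), 1 gained (17.9%) and 1 lost (21.3%) in cold, 0 gained in salt (0.977%) and 2 lost in drought (32.4%). FAIRE-seq then had 4 gained in heat (28.5%), 1 gained in cold (12.5%), 2 gained (34.5%) and 3 lost (23.3%) in salt and 2 gained in drought (35.6%). Without summits inside other genes, DNase-seq had 1 lost in heat (44.3%), 1 lost in cold (34.0%), 0 gained in salt (2.65%) and 2 lost in drought (50.9%). The share of the 10 genes with a gained peak, above that of all genes in all 8 comparisons as reported, was below it in 5 with gene ends only, in 2 each with the −log10 q minimum, with 50% coverage and without summits inside other genes, and in 1 with lists of equal length. Smaller windows take in fewer summits by construction; for the other settings the cause was not tested. Of the 65 calls of a gene in a comparison, 53 remained with −log10 q of at least 5, 45 with lists of equal length, 49 without summits inside other genes, 58 with 500 bp flanks and 33 with gene ends only. No paired analysis was possible because each group has 1 pooled list. Leaving out replicates was not possible for the same reason, and the unknown depth limits every absence of a peak.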

Other observations

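Over the 10 lists, HSFA2 had 3, 2, 2, 2 and 2 DNase-seq summits and 5, 2, 4, 4 and 3 FAIRE-seq summits in heat, cold, salt, drought and control. Among 13471 protein-coding genes with a window within 20% of its length, 1 gene, MRL7-L (AT2G31840), had the same number in every list, and 1 more, ATSDI1 (AT5G48850), differed by 1 summit in 1 list. The likeness is of counts of summits over 10 lists and says nothing of their positions.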
